A study of Homo sapiens with 24 samples.

Results

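The 36 genes described here carry cells from G1 into S phase and copy the DNA, and they were chosen by name as a set of G1/S and DNA replication genes. Earlier results of these data were known when they were chosen. Every array probe whose symbol in the platform's probe table is one of the 36 was taken, which gave 53 probes of 30113 with a single symbol (20046 genes). Of these, 51 probes of 35 genes were detected on at least 3 arrays and were tested. After 2 h with the inhibitor AEZS-136 regulators that act before S phase were lower. Most probes of the replication machinery were not called, which was also true of most probes on the array. SKP2, CCNE1 and CDC25A fell in the average of 4 Hodgkin lymphoma lines, by 0.40 to 0.50 on the log2 scale at the called probes. For CDC25A this was the dimmer probe, and its brightest probe was not called. With the log2 values that the authors deposited, or without background correction, 1 probe stayed called in the average, the brightest of SKP2. That probe fell furthest in SUP-HD1, by 1.05, whereas the other SKP2 probes fell furthest in L-428. RRM2 rose in KM-H2 and L-540 and was not called in the other lines, and neither rise stayed called with the deposited log2 values. Between the untreated lines E2F2 differed by at least 26.8-fold, and CDT1, GINS2, MCM10 and RRM2 by over 2 log2 units.

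Entry into S phase is driven by cyclin E with CDK2, which CDC25A activates by removing inhibitory phosphates and which SKP2 frees by marking the inhibitor p27 for degradation. E2F transcription factors, released from the retinoblastoma protein, then switch on genes for licensing, replication and nucleotide supply. At each origin ORC, CDC6 and CDT1 load the MCM2 to MCM7 helicase, CDC45 and the GINS complex with MCM10 activate it, and polymerases with the PCNA clamp copy both strands. Growth signals through the PI3K and ERK pathways are known to feed into G1 progression.

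Gene expression was measured on 24 Illumina bead arrays in 4 established lines, KM-H2 and L-428 together with L-540 and SUP-HD1, which were cultured alike in serum-containing medium. Each line received 10 µM AEZS-136, a compound the study describes as inhibiting PI3K and ERK signalling, or DMSO vehicle (control), and RNA was taken after 2 h, with 3 arrays for each of the 8 combinations. The study's own classes put KM-H2 and L-428 among lines resistant to death from the compound, and L-540 and SUP-HD1 among sensitive ones. These are cultured tumour lines sampled at 1 dose and 1 early time, and a bulk array cannot tell fewer cells expressing a gene from less RNA per cell. The labels do not state if the 3 arrays of each group are of separate cultures, and the p-values therefore cover the spread among arrays alone, possibly a technical one.

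Levels are background corrected, quantile normalized log2 intensities of a probe, and a change is AEZS-136 minus control on that scale. Probes are named as called where limma gave an adjusted p under 0.05 over all 24578 probes kept, with a log2 difference over 0.4 (1.32-fold). Array medians of the raw signal ran from 96 to 127.9, with 16876 to 19524 probes detected per array. Of 7 genes typical of Hodgkin and Reed-Sternberg cells, 6 were detected on all 6 arrays of each line, but not the same 6. In L-540 the gene short of this was CCL17. In the other lines it was TNFRSF8, which encodes the defining antigen CD30 and was detected on no array of KM-H2 or SUP-HD1. The mean levels of 5 marker lists (Hodgkin, B, T, myeloid and stromal cells) were apart between control and AEZS-136 arrays in 6 of 20 pairs of list and line. These were the Hodgkin list in KM-H2 (10.02 to 10.20 in control, 9.93 to 10.01 treated) and L-540 (9.47 to 9.66 and 9.27 to 9.43), the T cell list in KM-H2 (5.47 to 5.59 and 5.34 to 5.40) and L-540 (5.21 to 5.29 and 5.04 to 5.13), the stromal list in KM-H2 (4.94 to 4.98 and 5.03 to 5.16) and the myeloid list in SUP-HD1 (5.48 to 5.55 and 5.38 to 5.44). Of the 7 genes each, 3 T cell markers in KM-H2 and 6 in L-540, 5 stromal markers in KM-H2 and 2 myeloid markers in SUP-HD1 were detected on no array. The part of these markers in the changes below was not tested.

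The first question was how the untreated lines compare. The level differed between the 4 control groups for 39 of the 51 probes (76.5%), close to the 73.6% of all probes that the same F test called. The called probes covered 30 genes. Among the 35 leading probes, meaning the brightest probe of each gene over all arrays, 28 were called, of which 12 were highest in KM-H2 and 8 in L-428, and 14 were lowest in L-540. The pair with the fewest calls was L-428 against L-540, with 14 probes (27.5%, against 44.5% of all probes). The other 5 pairs had 23 to 25 each (45.1% to 49%), against 46.2%, 48.6% and 49.6% of all probes for KM-H2 against L-428, L-540 and SUP-HD1, and 42.9% and 46.6% for SUP-HD1 against L-428 and L-540. All these values describe probes across lines, and no level is compared between genes.

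**Figure D1:**
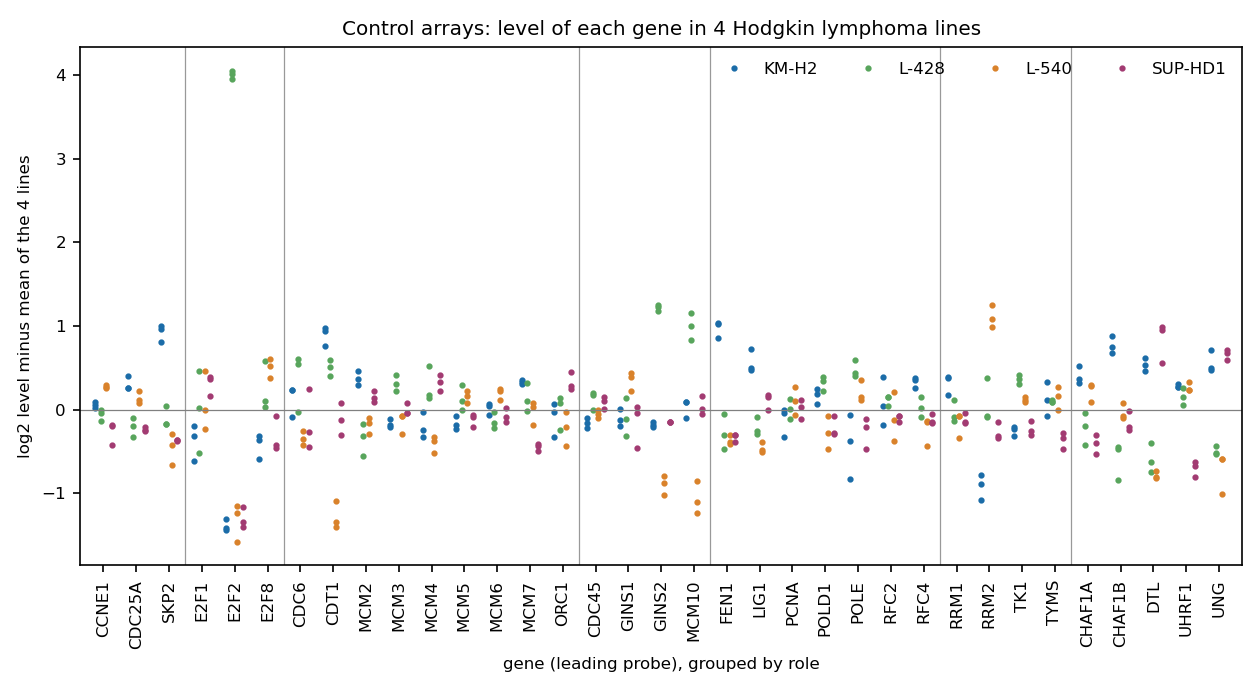
Log2 level of each gene's leading probe on the 12 control arrays, minus the mean of the 4 line means, with genes on the x axis grouped by role; each point is 1 array. E2F2 stands high in L-428 and is below detection in the other lines, and CDT1, GINS2, MCM10 and RRM2 span over 2 log2 units between lines.

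E2F2, a transcriptional activator of the E2F family, was detected in L-428 alone among the controls. Its level was 9.94, 9.85 and 9.91 in L-428, and in no other line did any control array detect it. The measured values there were 4.58, 4.47 and 4.45 in KM-H2, 4.73, 4.65 and 4.31 in L-540, and 4.73, 4.54 and 4.49 in SUP-HD1. Against the lowest detected level of each array, L-428 was at least 30.2-fold above KM-H2, 26.8-fold above L-540 and 29.5-fold above SUP-HD1. By limma the largest adjusted p of the 3 comparisons was 5.42e-18. It tests the measured values, which are below detection outside L-428, and not these bounds. The probe was detected on 7 arrays, 3 control and 3 treated ones of L-428 and 1 treated one of L-540. It passed the 3-array filter only through L-428, so the p-value is no separate evidence for the difference. With AEZS-136 the E2F2 level was 9.71, 9.74 and 9.88 in L-428, which overlapped the controls. Of the 3 treated L-540 arrays 1 detected E2F2, at 5.24. E2F2 is given in full after its values were seen. The probe of E2F1, another activator, did not pass the F test across the lines (adjusted p = 0.083), although SUP-HD1 was 0.68 above KM-H2 in the comparison of that pair (adjusted p = 0.019), the 1 of 6 pairs called. E2F8, a repressor, ranged over 0.92 with its highest level in L-540 (adjusted p = 0.00014).

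Among the licensing genes CDT1 differed most. In control cultures it stood at 10.35, 10.38 and 10.17 in KM-H2, 9.82, 10.01 and 9.92 in L-428, 8.0035, 8.06 and 8.32 in L-540, and 9.10, 9.29 and 9.49 in SUP-HD1. The order KM-H2, L-428, SUP-HD1, L-540 had no overlap between neighbours, and the difference between the first pair, 0.38, was the only one of the 6 under the threshold. KM-H2 was 4.5-fold above L-540 (log2 difference 2.17, SE 0.106, adjusted p = 1.56e-13). With AEZS-136 the levels were 10.19, 10.15 and 10.16 in KM-H2, 9.75, 9.92 and 9.74 in L-428, 7.91, 7.76 and 7.67 in L-540, and 9.12, 9.21 and 9.09 in SUP-HD1, so that the same order stood and no line was called. The helicase subunits MCM2 to MCM7, with 10 probes, ranged over 0.26 to 0.96 between lines, and 7 were called. MCM5 and MCM6 were not, with ranges of 0.32 and 0.33, nor was a dim probe of MCM7. MCM4 was highest in SUP-HD1 at both probes (ranges 0.73 and 0.96). Both MCM3 probes were highest in L-428, and 2 MCM7 probes were highest in KM-H2. ORC1, a subunit of the origin recognition complex, ranged over 0.55. CDC6 was detected on 5 of the 12 control arrays, 2 of them in L-428 and 0 in L-540. Against the lowest detected level of each array, L-428 was at least 1.11-fold above L-540. The limma adjusted p of 0.00231 is for the measured values and not for this bound.

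The helicase activators GINS2 and MCM10 shared an order of lines, L-428 high and L-540 low. GINS2, a subunit of the GINS complex, was 12.44, 12.47 and 12.40 in L-428 controls and 10.33, 10.42 and 10.19 in L-540. Its levels in KM-H2 (11.06, 11.0017 and 11.03) and SUP-HD1 (11.07, 11.07 and 11.06) lay between, 0.035 apart (adjusted p = 0.756). L-428 was thus 4.35-fold above L-540 (log2 difference 2.12, SE 0.0811, adjusted p = 3.07e-15). MCM10, which binds the helicase as it is activated, was 11.46, 11.63 and 11.78 in L-428, 10.71, 10.52 and 10.71 in KM-H2, 10.57, 10.79 and 10.62 in SUP-HD1, and 9.52, 9.39 and 9.76 in L-540. The difference between L-428 and L-540 was 2.06 (SE 0.108), and 2.45 (SE 0.0959) at a second probe, while KM-H2 and SUP-HD1 overlapped at both. With AEZS-136 the GINS2 levels were 10.74, 10.90 and 10.73 in KM-H2, 12.44, 12.39 and 12.50 in L-428, 10.25, 9.98 and 10.05 in L-540, and 11.04, 10.995 and 10.97 in SUP-HD1. Those of MCM10 were 10.91, 10.77 and 10.92, then 11.56, 11.75 and 11.63, then 9.17, 9.32 and 9.35, then 10.58, 10.42 and 10.64 in the same order of lines. Neither gene was called for a change in a line. CDC45, their partner in the active helicase, ranged over 0.29 only. GINS1 was near the limit of detection in all lines, detected on 3 control arrays of L-540 (detection p 0.032, 0.017 and 0.022) and 1 of each other line.

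FEN1 and SKP2 were highest in KM-H2. FEN1, the nuclease that trims Okazaki fragments, was 13.38, 13.40 and 13.22 in KM-H2 controls, 12.31, 12.06 and 11.89 in L-428, 11.96, 12.07 and 11.98 in L-540, and 12.06, 11.98 and 12.06 in SUP-HD1. KM-H2 stood alone, 2.37-fold to 2.52-fold above each of the others (smallest log2 difference 1.24, SE 0.0911), which overlapped one another. CHAF1B, a subunit of chromatin assembly factor 1, was also highest in KM-H2 (range 1.36, lowest in L-428). UNG, the uracil glycosylase, and DTL, the adaptor that marks CDT1 for degradation, were each high in KM-H2 and SUP-HD1 and low in L-428 and L-540. The mean level of UNG was 11.66, 10.60, 10.37 and 11.76 in KM-H2 and L-428, then L-540 and SUP-HD1, and that of DTL 9.96, 8.83, 8.63 and 10.25. UHRF1, which guides maintenance methylation, was lower in SUP-HD1 (10.82) than in the other lines (11.68 to 11.80).

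Of the enzymes of nucleotide supply, RRM2, the regulatory subunit of ribonucleotide reductase, differed most, and its order was not that of the helicase activators. Control levels were 10.95, 10.78 and 10.68 in L-540, 10.06, 9.61 and 9.61 in L-428, 9.38, 9.36 and 9.54 in SUP-HD1, and 8.91, 8.61 and 8.81 in KM-H2. No neighbours in this order overlapped, and only L-428 and SUP-HD1, 0.34 apart, missed the threshold. L-540 was 4.08-fold above KM-H2 (log2 difference 2.03, SE 0.111, adjusted p = 1.17e-12). RRM1, the catalytic subunit, ranged over 0.48, thymidylate synthase TYMS over 0.51 and thymidine kinase TK1 over 0.61.

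Among the other fork genes, LIG1, the ligase that seals Okazaki fragments, ranged over 1.02 and was highest in KM-H2, POLE and POLD1, the catalytic subunits of both replicative polymerases, ranged over 0.90 and 0.59 and were highest in L-428, and the clamp loader subunit RFC4 over 0.49 and 0.57. The leading probes of PCNA and of RFC2, another clamp loader subunit, were not called (ranges 0.23 and 0.21), whereas a dimmer probe of each was (0.91 and 0.65). CHAF1A ranged over 0.81, CCNE1 over 0.54 and CDC25A over 0.54 at their leading probes. CCNE2 was detected on no array and was left out, as was another PCNA probe detected on 2 arrays.

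The second question was how the genes responded to AEZS-136. In L-428, 7 of 51 probes were called (13.7%, of 4 genes) against 7.27% of all probes. All 7 were lower, where 3.22% of all probes were called lower and 4.05% higher. The numbers were 3 of 51 each (5.88%) in KM-H2, L-540 and SUP-HD1, where 11.2%, 9.06% and 6.54% of all probes were called, so that in these lines the set was called no more often than the array as a whole. In KM-H2 and L-540, 1 of the 3 was higher and 2 were lower, against 6.47% higher and 4.75% lower of all probes in KM-H2 and 5.53% and 3.53% in L-540. In SUP-HD1 all 3 were lower, against 3.6% of all probes, with 2.94% of all probes higher. In the mean of the 4 lines 5 probes of 3 genes were called (9.8%), against 6.69%, and all were lower, against 2.47%. None was called higher in L-428, SUP-HD1 or the mean by limma, and the methods' t-test likewise called none higher in any line. At an unadjusted p under 0.05 by limma, 4 probes each were higher in L-428, SUP-HD1 and the mean (7.84%, against 10.1%, 10.3% and 16.8% of all probes). Lower were 10, 9 and 16 (19.6%, 17.6% and 31.4%, against 10.4%, 10.3% and 17.4%). In L-540, 1 was higher and 16 were lower (31.4%, against 10.8%). In KM-H2, 2 were higher and 7 lower (13.7%, against 12.6%). The higher share of all called probes depended on the scaling: it was 57.7%, 55.7%, 61%, 44.9% and 63% in KM-H2, L-428, L-540, SUP-HD1 and the mean, but 83.3%, 49.7%, 81.4%, 72% and 77.3% with median scaling, and 66% in L-428 with the authors' values.

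The count in L-428 was 3 of 51 without the first control array of that line and 4 without its first treated array, and in the mean it was 3 without the first SUP-HD1 control array. Over the 51 probes the median change was 0.010 in KM-H2, -0.092 in L-428, -0.12 in L-540, -0.032 in SUP-HD1 and -0.034 in the mean, where the medians of all probes lay between -0.012 and 0.009. With median scaling the median of the set was -0.028 in KM-H2, where that of all probes was 0.026, and 0.058 in SUP-HD1, where that of all probes was 0.091. The set thus lay below all probes in SUP-HD1 under both scalings, and in KM-H2 above them in the one and below them in the other. In L-540, 39 of the 51 probes had a change below 0 (76.5%, against 52.2% of all probes), although 2 were called lower.

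**Figure D2:**
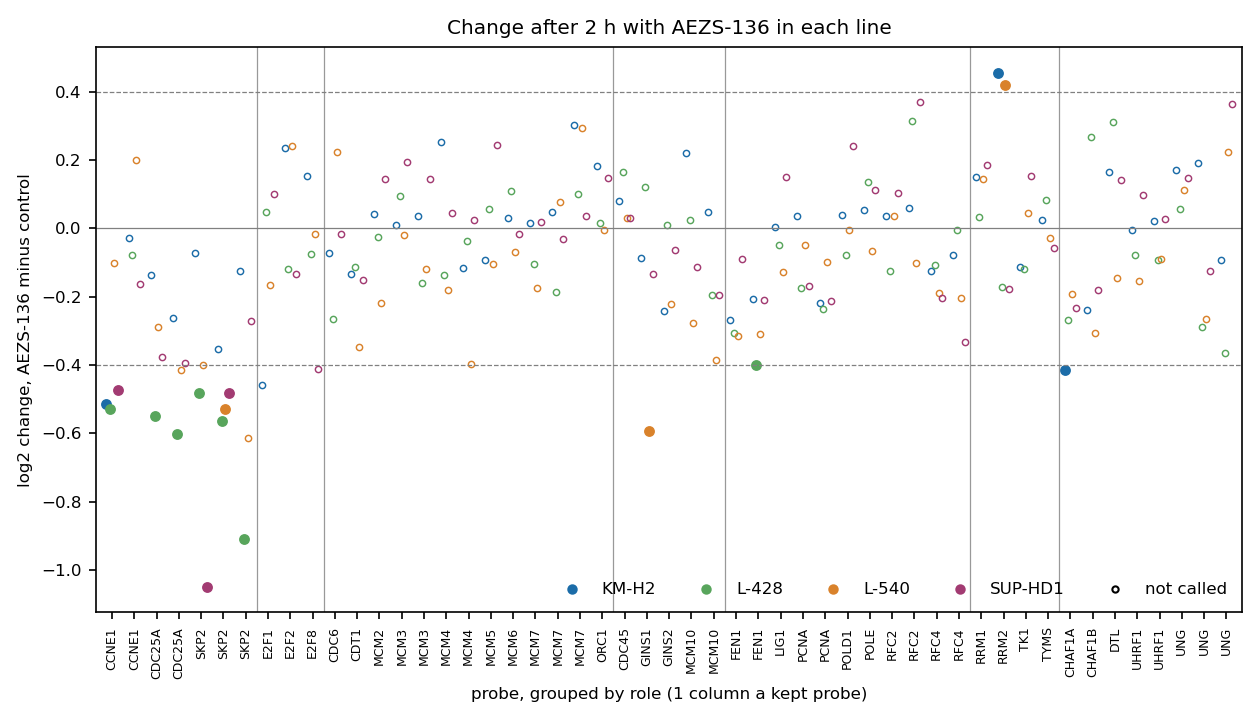
Log2 change, AEZS-136 minus control, of each of the 51 tested probes in each line, with probes on the x axis grouped by role; each point is a difference of 2 means of 3 arrays, filled where called, and the dashed lines mark 0.4 in each direction. Called points lie mostly among CCNE1, CDC25A and SKP2, and groups that did not detect a probe are included.

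The G1/S regulators carried most of the calls. CCNE1, CDC25A and SKP2 had 7 tested probes, 3 of them of SKP2. Called lower were 6 in L-428, 3 in SUP-HD1, 1 in KM-H2, 1 in L-540 and 5 in the mean. These are 85.7%, 42.9%, 14.3%, 14.3% and 71.4%, against 3.22%, 3.6%, 4.75%, 3.53% and 2.47% of all probes. With 7 probes of 3 genes, 1 call says little. The members were chosen with earlier results of these data known, so these shares describe the probes and are no test. Of the other 44 member probes, 2 were called in KM-H2, 1 in L-428 and 2 in L-540, where 11.2%, 7.27% and 9.06% of all probes were called. Their promoters are shown because these 3 genes moved in 1 direction. The windows run from 250 bases before to 50 after the gene's start, from RefSeq on GRCh38.p14, and capitals mark the word TTNNCGC, in which each N is C or G, on either strand, as a plain reading of an E2F site.

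CCNE1, chr19:29811741-29812040, plus strand: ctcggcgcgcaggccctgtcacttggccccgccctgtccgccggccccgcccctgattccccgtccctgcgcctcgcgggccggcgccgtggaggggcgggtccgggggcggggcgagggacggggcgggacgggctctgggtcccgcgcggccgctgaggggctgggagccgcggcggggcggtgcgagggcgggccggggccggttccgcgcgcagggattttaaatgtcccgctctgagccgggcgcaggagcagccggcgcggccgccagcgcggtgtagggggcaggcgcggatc

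CDC25A, chr3:48188368-48188667, minus strand: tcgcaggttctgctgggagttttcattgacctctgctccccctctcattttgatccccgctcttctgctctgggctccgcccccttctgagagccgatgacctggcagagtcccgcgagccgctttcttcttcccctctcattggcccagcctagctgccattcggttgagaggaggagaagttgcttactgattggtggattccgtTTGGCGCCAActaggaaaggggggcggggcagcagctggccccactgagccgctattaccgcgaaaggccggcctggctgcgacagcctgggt

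SKP2, chr5:36151861-36152160, plus strand: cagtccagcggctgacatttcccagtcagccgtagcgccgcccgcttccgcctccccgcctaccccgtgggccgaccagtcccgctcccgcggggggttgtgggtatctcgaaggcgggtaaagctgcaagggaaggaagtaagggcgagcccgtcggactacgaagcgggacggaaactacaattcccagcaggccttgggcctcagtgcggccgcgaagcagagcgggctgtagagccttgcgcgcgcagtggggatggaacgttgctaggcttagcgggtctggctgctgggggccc

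The window of CDC25A held 2 such words, 1 on each strand and overlapping, from 43 bases before the start. Those of CCNE1 and SKP2 held none, which says only that these letters are not in these windows. Of the 43 windows found for 32 of the 36 genes, 29 held the word (67.4%), against 13% of 35114 promoter windows of the same length. The word TTNGAA, in which N is T or C, read as a cell cycle homology element, was in 3 of the 43 (6.98%), against 16.4%. The table had no entry for CCNE2, MCM4, MCM5 and E2F8.

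SKP2, the F-box protein of the ubiquitin ligase that degrades p27, had 3 probes, all called lower in the mean. Its leading probe was 10.06, 10.06 and 10.06 on the SUP-HD1 controls and 9.08, 8.83 and 9.14 with AEZS-136, a fall of 1.05 (SE 0.103, 2.07-fold, adjusted p = 1e-06). This was the largest fall among the 51 probes in any line, and the groups were far apart. In L-428 the levels were 10.26, 10.47 and 10.25 in control and 9.91, 9.73 and 9.88 treated, a called fall of 0.48. In L-540 they were 10.01, 10.14 and 9.77 against 9.51, 9.61 and 9.61, also without overlap, and the change of -0.399 (adjusted p = 0.0135) was just under the size threshold. KM-H2, the line with most SKP2, overlapped at 11.24, 11.43 and 11.39 against 11.36, 11.19 and 11.29. In the mean SKP2 fell by 0.50 (SE 0.0516, adjusted p = 2.43e-07). This fall and that in SUP-HD1 stayed called under every alternative run, whereas of the 22 called changes 6 stayed called with median scaling, 5 without background correction and 4 with the authors' values.

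The second SKP2 probe is annotated to another transcript of the gene than the leading one. Its levels were 9.01, 8.81 and 8.97 in KM-H2 controls against 8.52, 8.57 and 8.64 with AEZS-136, 7.99, 7.53 and 7.60 against 7.08, 7.18 and 7.18 in L-428, 7.74, 8.03 and 7.63 against 7.38, 7.15 and 7.29 in L-540, and 6.97, 7.18 and 7.12 against 6.50, 6.44 and 6.88 in SUP-HD1. No line overlapped, and the changes were -0.35 in KM-H2, not called, and falls of 0.56, 0.53 and 0.48 in the others. At this probe the changes in the 4 lines lay within 0.21 of each other. Its call was lost in L-428 without the first control array, in L-540 without the second control or the second treated array, and in SUP-HD1 without the second or the third control or the first or the second treated array. The third probe, of the same transcript as the second, is dim. It was detected on all L-428 controls (5.96, 5.64 and 5.66) and on 1 treated array there (4.56, 4.97 and 5.01), with a called fall of 0.91 (SE 0.241), which was lost without the first control or the first treated array. The other lines overlapped at this probe, with 6.62, 5.39 and 6.33 against 6.08, 5.93 and 5.96 in KM-H2, 5.63, 5.72 and 5.12 against 5.12, 4.81 and 4.70 in L-540, and 4.78, 5.12 and 5.51 against 4.74, 4.90 and 4.97 in SUP-HD1.

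CCNE1, cyclin E1, fell in 3 lines and was not called in L-540. The levels of its leading probe were 8.24, 8.31 and 8.29 in KM-H2 controls and 7.78, 7.78 and 7.74 with AEZS-136, a fall of 0.51 (SE 0.093, 1.43-fold, adjusted p = 0.000559). They were 8.18, 8.22 and 8.09 against 7.75, 7.40 and 7.75 in L-428, a fall of 0.53, and 8.05, 7.80 and 8.03 against 7.38, 7.58 and 7.50 in SUP-HD1, a fall of 0.47. In none of these lines did the groups overlap. The L-540 groups were also apart, at 8.48, 8.50 and 8.51 against 8.37, 8.38 and 8.43, but the change was -0.10 (95% interval -0.29 to 0.09, adjusted p = 0.601). A difference of the response between the 4 lines was not established (F test adjusted p = 0.098). In the mean CCNE1 fell by 0.40 (SE 0.0465, adjusted p = 1.1e-06), close to the size threshold. This mean was under the size threshold, at -0.37 to -0.40, without the second control or treated array of L-428, or without the first or the third control or the first treated array of SUP-HD1. A second probe, detected on 4 of 24 arrays, overlapped in every line, with values from 4.47 to 5.26.

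CDC25A, the phosphatase that activates CDK2, fell in L-428 at both probes. The leading probe was 9.54, 9.43 and 9.30 in L-428 controls and 8.92, 8.86 and 8.84 with AEZS-136, a fall of 0.55 (SE 0.0728, 1.46-fold, adjusted p = 3.59e-05). Treated levels were also below every control in KM-H2 (9.89, 10.03 and 9.88 against 9.82, 9.79 and 9.80), L-540 (9.71, 9.74 and 9.85 against 9.50, 9.48 and 9.45) and SUP-HD1 (9.37, 9.39 and 9.42 against 9.004, 9.02 and 9.03). The changes there, -0.14, -0.29 and -0.38, and that in the mean, -0.34, were under the size threshold, the last 3 with adjusted p = 0.0111, 0.002 and 4.49e-07. At the dimmer second probe the levels were 6.92, 6.41 and 6.47 against 5.64, 5.96 and 6.39 in L-428, a fall of 0.60 (adjusted p = 0.0485), which stayed called in 5 of 24 fits that each left out 1 array. In the other lines it was 7.01, 6.49 and 7.12 against 6.67, 6.66 and 6.50 in KM-H2, 6.88, 6.95 and 7.22 against 6.35, 6.66 and 6.79 in L-540, and 6.70, 6.54 and 6.36 against 6.30, 6.03 and 6.09 in SUP-HD1. KM-H2 alone overlapped, and the mean fell by 0.42 (SE 0.0938). The mean was not called without the third KM-H2 control, the first L-428 control or treated, the third L-540 control, the first L-540 treated or the first SUP-HD1 control array.

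**Figure D3:**
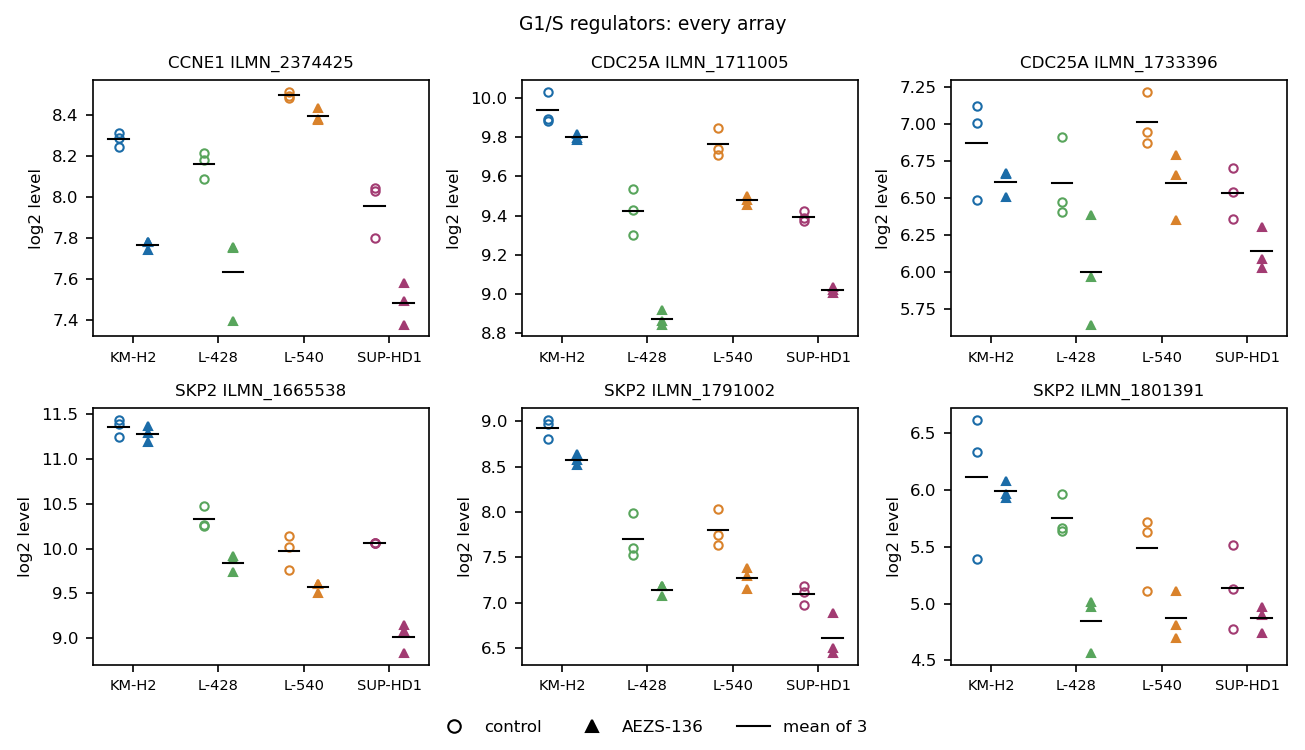
Log2 level of the 6 called probes of CCNE1, CDC25A and SKP2 on every array, by line; open circles are control arrays, filled triangles AEZS-136 arrays and bars means of 3. Treated arrays lie below the control arrays in SUP-HD1 at all probes but the dimmest of SKP2, where they overlap.

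RRM2 was the only member with a called rise. Its levels went from 8.91, 8.61 and 8.81 to 9.22, 9.23 and 9.24 in KM-H2, a rise of 0.46 (SE 0.111, 1.37-fold, adjusted p = 0.00711), and from 10.95, 10.78 and 10.68 to 11.23, 11.19 and 11.25 in L-540, a rise of 0.42 (adjusted p = 0.0158). Both lines were without overlap, and they were the lines with the lowest and the highest control level. In L-428 (10.06, 9.61 and 9.61 against 9.58, 9.64 and 9.54) and SUP-HD1 (9.38, 9.36 and 9.54 against 9.20, 9.18 and 9.36) the groups overlapped, with changes of -0.17 and -0.18. The rise in KM-H2 was not called without the second control array, and that in L-540 not without the third control or the third treated array of that line. Neither rise was called with median scaling, with the authors' values or by the methods' t-test. That in KM-H2 was also not called without background correction, nor that in L-540 with only the arrays of L-540. RRM2 has 2 promoter windows on GRCh38.p14 from RefSeq, of which the one with an E2F word, from 192 bases before its start, is shown beside that of E2F2, whose word starts 41 bases before.

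RRM2, chr2:10122318-10122617, plus strand: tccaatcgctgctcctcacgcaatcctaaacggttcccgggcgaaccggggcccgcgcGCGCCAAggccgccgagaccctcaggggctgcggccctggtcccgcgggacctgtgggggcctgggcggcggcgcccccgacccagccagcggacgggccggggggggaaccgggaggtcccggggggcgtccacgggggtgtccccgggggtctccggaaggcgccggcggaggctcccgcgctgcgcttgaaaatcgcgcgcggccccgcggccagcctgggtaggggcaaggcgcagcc

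E2F2, chr1:23531184-23531483, minus strand: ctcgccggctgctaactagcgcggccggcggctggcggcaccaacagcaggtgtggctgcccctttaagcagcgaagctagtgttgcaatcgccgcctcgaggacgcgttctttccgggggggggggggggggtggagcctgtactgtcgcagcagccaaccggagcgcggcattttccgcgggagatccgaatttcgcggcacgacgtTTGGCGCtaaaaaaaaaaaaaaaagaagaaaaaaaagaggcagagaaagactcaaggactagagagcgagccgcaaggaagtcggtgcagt

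The other window of RRM2 held no such word. For the genes with several windows the files do not say which start is used in these lines.

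**Figure D4:**
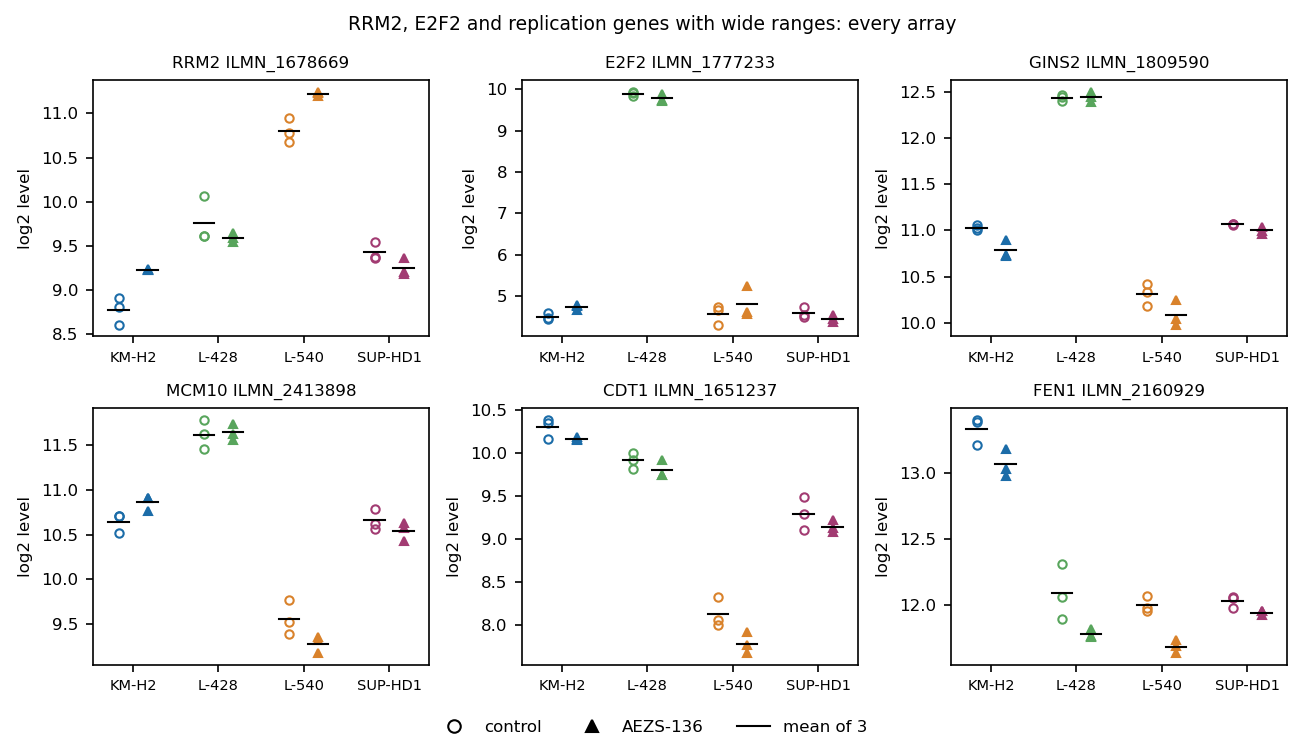
Log2 level of RRM2, E2F2 and 4 replication genes with wide ranges between lines, leading probe of each, on every array; open circles are control arrays, filled triangles AEZS-136 arrays and bars means of 3. RRM2 is higher with AEZS-136 in KM-H2 and L-540, GINS2 and MCM10 are highest in L-428 and lowest in L-540 with and without the compound, and CDT1 is lowest in L-540 in both.

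Another 3 members were called in 1 line each. CHAF1A, the large subunit of chromatin assembly factor 1, fell by 0.41 in KM-H2 (SE 0.109, adjusted p = 0.0121), from 7.57, 7.41 and 7.37 to 6.92, 7.04 and 7.16. Its levels were 6.63, 7.01 and 6.86 against 6.48, 6.61 and 6.60 in L-428, 7.35, 7.33 and 7.14 against 6.93, 7.22 and 7.10 in L-540, and 6.75, 6.53 and 6.65 against 6.33, 6.54 and 6.35 in SUP-HD1, the last 2 with overlap. CHAF1A was no longer called in KM-H2 without the first control or the first treated array. GINS1, a subunit of the GINS complex, was detected on all 3 L-540 controls (5.32, 5.53 and 5.49). No treated array there detected it (5.07, 4.76 and 4.72), and it was at least 1.25-fold lower. The call is for the measured change of -0.59 (limma adjusted p = 0.0447) and not for this bound. This call stayed in 13 of 24 fits that left out 1 array. The other GINS1 groups overlapped, with 4.96, 5.09 and 4.90 against 4.73, 4.62 and 5.35 in KM-H2, 4.97, 4.78 and 5.23 against 4.91, 5.19 and 5.24 in L-428, and 5.05, 5.12 and 4.63 against 4.91, 4.44 and 5.06 in SUP-HD1, where 1 or 2 arrays of each group detected it.

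FEN1 was called in L-428 at its second probe, with a fall of 0.40 (SE 0.122, adjusted p = 0.0437) from 10.25, 9.82 and 9.51 to 9.47, 9.45 and 9.46. Without the first control array the change was -0.21 (adjusted p = 0.254), and the call stayed in 3 of 24 fits that left out 1 array. The second probe was otherwise 11.38, 11.39 and 11.38 against 11.16, 11.15 and 11.23 in KM-H2, 9.76, 9.76 and 9.73 against 9.39, 9.40 and 9.52 in L-540, and 9.66, 9.61 and 9.71 against 9.29, 9.60 and 9.47 in SUP-HD1. At the leading probe the treated levels were 13.03, 13.18 and 12.98 in KM-H2, 11.82, 11.76 and 11.76 in L-428, 11.69, 11.63 and 11.73 in L-540, and 11.92, 11.95 and 11.95 in SUP-HD1. Treated FEN1 levels were below every control in each line at both probes, with changes between -0.09 and -0.40, of which 1 was called.

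Most of the replication machinery was not called. Of the 13 licensing probes 0 were called by limma in any line or in the mean, and 0 by the methods' t-test. By limma 11.2%, 7.27%, 9.06% and 6.54% of all probes were called in KM-H2 and L-428, then L-540 and SUP-HD1, and 6.69% in the mean. A count of 0 among 13 probes is close to these shares. At an unadjusted p under 0.05, 1 was higher in KM-H2 (7.69%, against 12.8% of all probes) and 0 moved in L-428. In L-540 3 were lower (23.1%, against 10.8%), and in SUP-HD1 2 were higher (15.4%, against 10.3%). The 40 changes of MCM2 to MCM7 lay between -0.40 and 0.30. PCNA, RFC2, RFC4, POLD1, POLE and LIG1 gave no call, nor did RRM1, TYMS, TK1, CDC45, GINS2, MCM10, CHAF1B, UHRF1, UNG, DTL, ORC1, CDC6, CDT1, E2F1, E2F2 or E2F8. The largest of these uncalled changes at a leading probe were -0.46 for E2F1 in KM-H2 and -0.41 for E2F8 in SUP-HD1. Some were past the p threshold but smaller than the size threshold, such as CDT1 in L-540 (-0.35, adjusted p = 0.037) and the second MCM10 probe there (-0.39, adjusted p = 0.0104).

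Whether the lines responded alike was tested with an F test over the 4 changes. It called 2 of 51 probes (3.92%), against 7.62% of all probes: the leading probe of SKP2, with changes from -0.07 in KM-H2 to -1.05 in SUP-HD1 (adjusted p = 0.00145), and RRM2 (adjusted p = 0.00968). In the contrast of resistant and sensitive lines 1 of 51 was called, against 2.1% of all probes (1.35% in the same direction). The change of the leading SKP2 probe in KM-H2 and L-428 was 0.45 above that in L-540 and SUP-HD1 (SE 0.103, adjusted p = 0.0229). Without the second treated SUP-HD1 array this was not called. The sensitive L-540 and the resistant L-428 had changes of -0.40 and -0.48 at this probe. The dimmer SKP2 probes gave 0.05 and -0.07 (SE 0.13 and 0.241).

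Related genes outside the set were called in both directions. Of 88 tested probes of 62 other G1/S and replication genes, 6 were higher and 2 lower in the mean (6.82% and 2.27%, against 4.22% and 2.47% of all probes). Among them TFDP2, a dimer partner of E2F factors, rose by 0.66 (SE 0.0884) at 1 probe with a change of 0.35 at the other, E2F5, a repressive E2F factor, fell by 0.61 (SE 0.0518), and DNA2, a replication nuclease and helicase, rose by 0.54 and 0.42 at its probes. Of 46 probes of 30 G2/M and mitosis genes, 3 were called higher and 0 lower in the mean by limma (6.52% and 0%, against 4.22% and 2.47% of all probes). At an unadjusted p under 0.05, 12 were higher and 1 lower (26.1% and 2.17%, against 16.8% and 17.4% of all probes). Each of these 3 genes was called in the mean at 1 of its probes. KIF23, a kinesin of cytokinesis, rose by 0.72 at 1 probe and had a change of 0.02 at the other, BIRC5, which encodes survivin, rose by 0.48 with 0.37 at the other, and CDC25C, the phosphatase of mitotic entry, rose by 0.42 with 0.33 and -0.16 at the others. Of 10 probes of 6 CDK inhibitors, 2 were higher in the mean (20%, against 4.22% of all probes). CDKN1B, which encodes p27, the substrate of SKP2, rose by 0.41 at 1 probe, where the other had a change of 0.38, just under the size threshold. Both rose by 0.86 in SUP-HD1, with 0.43 and 0.54 in L-540, 0.10 and 0.04 in KM-H2 and 0.23 and 0.08 in L-428. The 2 probes of CDKN1A, which encodes p21, went opposite ways in the mean, 0.48 and -0.35. They had changes of 1.10 and 0.06 in L-540, 0.75 and -0.93 in SUP-HD1, 0.09 and -0.70 in KM-H2, and -0.02 and 0.15 in L-428.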

How the data were processed

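The 24 arrays hold 3 for each of the 8 combinations of 4 Hodgkin lymphoma lines and 2 treatments, grouped from the sample labels. The members and gene lists were chosen with earlier results of these data known. The authors deposited non-normalized bead intensity values of 47323 probes on a linear scale, exported from BeadStudio, with a detection value per probe. They also deposited log2 values of the same probes, from the lumi package with its robust spline method. The columns of the first table are out of register over 3270 consecutive probes, and these, none of them a member's, were left out. The shift gives the order of the arrays in a first export. For the alternatives this order was cut in the middle into 2 sets of 12 arrays, which each hold every group. The labels name no such sets.

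Intensities were corrected by the normexp model with background parameters inferred from the detection values, and quantile normalized (neqc, offset 16, limma 3.58.1, R 4.3.3). A probe was kept if its detection p was below 0.05 on 3 arrays or more. All 24 arrays entered a single linear model (lmFit, eBayes) with a coefficient per group. Benjamini and Hochberg adjustment ran over the whole set of kept probes, and calls needed an adjusted p under 0.05 and a log2 difference over 0.4, as in the study's methods. The contrasts were AEZS-136 against control in each line and in their mean, the class difference, pairs of control groups, and moderated F tests among control groups and among changes. The fits were tested on simulated data.

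Every member is named. Members called in a line or in the mean, and the 6 with the widest range of control means, are given on every array. The 6 were taken by the widest probe of each gene, among probes detected on all 3 control arrays of at least 2 lines. E2F2 was therefore not among them. The leading probe is the one with the highest mean over all arrays. From other lists at most 3 called genes are named. For a group in which a probe was detected nowhere, a fold is a bound against the lowest detected level of each array. Gene symbols came from the platform's probe table (30113 probes with 1 symbol, 8 with several, 17202 unlisted), and a RefSeq gene table, GRCh38.p14, matched 30074 Entrez IDs and changed 0 symbols. Promoters came from RefSeq on GRCh38.p14. The number of arrays limits the precision. Alternatives were other background corrections and scalings, the authors' values, other detection filters, the replicate number and the export set as blocks, each set alone, each line alone, the methods' t-test, and leaving out each array. The slide of each array is not given in the sources used here.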

Additional observations from a re-analysis of the deposited data

Results flagged for a closer look

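At SKP2's leading probe the 4 lines differed in their response to AEZS-136 by the F test across the lines, with changes of -0.07, -0.48, -0.40 and -1.05 in KM-H2 and L-428, then L-540 and SUP-HD1, a range of 0.9751 (adjusted p = 0.00145 by limma). Over 33 alternatives this range ran from 0.73 to 1.04, and the difference stayed called in 30, not with either export set alone or with median scaling. The 2 classes of lines differed at the same probe by 0.4458 (adjusted p = 0.0229), which stayed called in 27 of 33. The other 2 SKP2 probes were not called in either test (F test adjusted p = 0.841 and 0.375). RRM2 was called by the same F test, with a range of the changes of 0.6325 (adjusted p = 0.00968), the rises being in KM-H2 and L-540 (0.46 and 0.42) and the changes in L-428 and SUP-HD1 -0.17 and -0.18. It stayed called in 30 of 33 alternatives.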

How the results depend on the processing

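No called change turned direction under any alternative. SKP2's leading probe stayed called in SUP-HD1 under all 35 alternatives (-1.23 to -0.89) and in the mean under all 33 (-0.63 to -0.40). CCNE1 in the mean kept an adjusted p under 0.05 in all 33 (-0.42 to -0.27) but was past the size threshold in 23. Counts of called member probes, given for KM-H2 and L-428, then L-540 and SUP-HD1, then the mean and the difference of responses, were 3, 7, 3, 3, 5 and 2. They moved to 0, 2, 1, 1, 1 and 4 without background correction, to 0, 2, 0, 1, 3 and 0 with median scaling, and to 0, 2, 0, 1, 1 and 4 with the authors' log2 values. All 21 called changes in a line or the mean were smaller in size without background correction and with the authors' values, and 12 were with median scaling. The first export set alone gave 1, 0, 1, 1, 5 and 0, and the second 0, 1, 0, 1, 2 and 0, with 1 or 2 arrays per group. As a block the export set gave 3, 7, 3, 3, 4 and 4. Detection on all 24 arrays gave 5 differences of responses. With only the arrays of the line the counts were 3, 2, 1 and 1, and the methods' t-test called 0, 0, 0 and 1. Control levels gave 39 calls, and 30 to 40 under these alternatives. The same replicate number did not pair arrays (12 correlations of deviations from -0.178 to 0.0959), and with it as a block the counts were 3, 5, 2, 3, 5, 2 and 39. Leaving out each array gave 2 to 3 calls in KM-H2, 3 to 8 in L-428, 2 to 5 in L-540, 2 to 4 in SUP-HD1, 3 to 5 in the mean, 39 to 41 for control levels and 2 to 3 for the difference of responses. The 5 in L-540 came without its first treated array. Shares of all probes called ran from 0.464% to 16% over the alternatives in single lines. The cause of these shifts was not tested. Probes near the detection limit, among them GINS1, CDC6 and the dim SKP2 and CCNE1 probes, may give changes that understate differences, which was not tested. The dim SKP2 probe gave -0.91 in L-428 and -0.61 in L-540, where the brighter probes gave -0.48 and -0.56, then -0.40 and -0.53. In SUP-HD1 it gave -0.27 against -1.05 and -0.48, and in KM-H2 it lay between them.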
